A study of Paracentrotus lividus with 54 samples.

Results

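Adult ovaries of the sea urchin Paracentrotus lividus were compared with 4 adult somatic tissues. These were gut, bodywall, tubefeet (the hydraulic feet on which the animal moves) and Aristotle's lantern, its jaw apparatus. The genes described are those whose level in ovaries lay above all 4 somatic tissues or below all 4. The comparison used 5 of the 54 samples of the series, 1 RNA-seq library per tissue. Of 33922 gene models, 22028 reached at least 1 scaled CPM, the gene's count relative to the scaled total of its library, in at least 1 of the 5 libraries and were compared. The other 11894 models were not compared, and 4898 of them had 0 counts in all 5 libraries. All 5 samples were labelled as adult, wild type (WT) and whole organism, and carried the same treatment entry, normal embryonic development, as the embryos. The number of animals, their age beyond adult and the ripeness of the ovaries are not given in the sources used here. The study also followed development in 17 RNA libraries, from the egg at 0 hours to the pluteus larva at 48 hours, and mapped open chromatin by ATAC-seq in 28 samples from the 16-cell stage to the pluteus. All of these samples were also labelled WT.

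A sea urchin ovary holds germ cells at all steps of oogenesis together with somatic nutritive cells, which store reserves that the growing oocytes use. Oocytes build up RNA and protein that the embryo inherits, and much of the early embryo's RNA therefore comes from the mother. ATAC-seq cuts accessible DNA with a transposase, and peaks of cuts at gene starts mark accessible promoters. The peak lists come from whole embryos and larvae, so they say nothing directly of chromatin in adult ovaries.

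The libraries held 36305776 counts in ovaries, against 28977302 in gut, 14657193 in bodywall, 34229886 in tubefeet and 19196308 in lantern. Counts were divided by library size after TMM scaling over all 22 RNA libraries, a correction that assumes most genes change little between libraries. Its factors ran between 0.364 in lantern and 1.03 in bodywall, with 0.826 in ovaries. The 100 most abundant genes took 44.1% of counts in ovaries and between 36.8% in bodywall and 61.6% in lantern. All counts were even in ovaries, gut, tubefeet and lantern, while 52.4% of nonzero counts were odd in bodywall, so the bodywall counts may be in another unit and were read only after scaling. The gene table names no genes, so the labelled tissues were not checked against marker genes, and identifiers are given without a function. With 1 library per tissue no difference was tested. Intervals cover counting error only.

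Ovaries had the highest level of the 5 tissues for 6255 genes, 28.4% of the genes compared, and the lowest level for 4602 genes, 20.9%. The other 11171 genes lay between somatic tissues or tied with them. Without the lantern library, the lowest for many genes, 6957 genes were below the other 3 somatic tissues. Exact Poisson intervals of ovaries stood clear of all 4 somatic tissues for 4589 genes above (20.8%) and 2010 genes below (9.12%). At a ratio of at least 2-fold to the nearest somatic tissue, with 0.5 CPM added to both levels, 3176 genes (14.4%) were above and 1935 genes (8.78%) below. These counts turned to 1917 above and 2970 below with DESeq2 size factors. The count below was 1173 with library size alone, 1132 with 2 CPM added, 2934 without tubefeet and 3171 without lantern. In bulk tissue, fewer cells of a type and less RNA per cell cannot be told apart, so each of these counts may mix both.

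The balance between higher and lower genes depended on the scaling. Of the genes called in either direction, 57.6% were above with TMM over 22 libraries and 57.5% with TMM over the 5 adult libraries. The share above was 65.5% when only library size was used and 41.4% with DESeq2 size factors. The median log2 difference of ovaries to the mean of the somatic tissues over all genes compared was -0.24 with the main scaling, -0.02 with library size and -0.66 with DESeq2 size factors. The split between higher and lower therefore has no fixed sign in these libraries. All 4419 genes above under DESeq2 size factors were also above under the main scaling. All 4602 genes below under the main scaling were among the 6254 below under DESeq2 size factors. Relative to the main scaling, DESeq2 size factors lower ovaries against each somatic library by the same factor for every gene. Both overlaps are therefore set by the factors and say nothing of agreement between the scalings.

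Ovaries were not alone in standing apart. Tubefeet had the highest level for 5867 genes, against 6255 in ovaries, and lantern had the lowest level for 7335 genes, against 4602 in ovaries. Bodywall held the lowest level for only 953 genes and the highest for 2741. Gut had the highest level for 3443 genes and the lowest for 2793.

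Genes were called restricted to ovaries when ovaries had at least 5 scaled CPM and at least 8-fold the highest somatic level, which held for 296 genes (1.34%). Genes were called depleted in ovaries when every somatic tissue had at least 5 scaled CPM and ovaries lay at least 8-fold under the lowest of them, which held for 253 genes (1.15%). Without the condition on the level, 299 genes (1.36%) were at least 8-fold above and 263 genes (1.19%) at least 8-fold below. By the same rule 492 genes were restricted to tubefeet, 269 to lantern, 93 to gut and 35 to bodywall. Depleted genes numbered 262 in lantern, 114 in tubefeet, 19 in gut and 0 in bodywall. The depleted class held 132 genes when only library size was used and 464 with DESeq2 size factors, while 2 CPM added to both levels left 178 restricted and 116 depleted genes. With the main scaling ovaries thus ranked behind tubefeet in restricted genes and beside lantern in depleted genes. The other tissues were counted with the main scaling and prior only, so this rank was not followed under the alternatives.

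**Figure D1:**
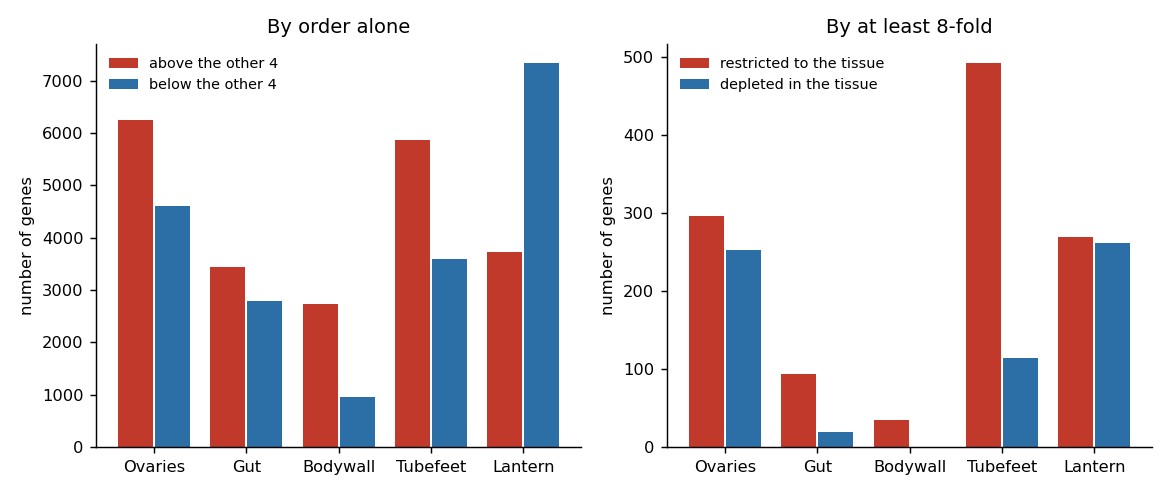
Number of genes for which each of 5 adult tissues had the highest or lowest level of the 5 (left) and by at least 8-fold with the level condition (right), 1 library per tissue. Ovaries had the most genes by order alone (6255 above), tubefeet the most restricted genes (492), and lantern the most genes below (7335).

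Many of these differences were small. All ratios here are with 0.5 CPM added to both levels. The median ratio of ovaries to the nearest somatic tissue was 2.02-fold for the genes above, with quartiles of 1.41 and 3.21. For the genes below, the nearest somatic tissue exceeded ovaries by a median of 1.75-fold, with quartiles of 1.27 and 3.01. Restricted genes had a median of 11.4-fold and depleted genes a median of 12.9-fold, values that the 8-fold rule itself sets in part. There was no gap at the 8-fold limit. The 5 restricted genes just inside it had ratios between 8.02 and 8.10, and the 5 just outside between 7.83 and 7.96. Ratios between 7 and 8-fold were found for 60 genes outside the restricted class, against 49 restricted genes between 8 and 9-fold. For the depleted class, the 5 nearest genes lay between 8.01 and 8.10 inside and between 7.86 and 7.99 outside.

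With 0.5 CPM added to both levels, PL16373 and PL07239 had the largest ratios of ovaries to the nearest somatic tissue among genes of at least 20 scaled CPM. The order depends on this addition where somatic counts are 0, as for PL07239. PL16373 lies on scaffold 218, bases 27124419 to 27138813, on the minus strand, with 6 exons. It had 750.1 scaled CPM in ovaries, against 0.954 in gut, 10.2 in bodywall, 0 in tubefeet and 0.286 in lantern. Ovaries stood alone at a high level, bodywall came next, and the other tissues held few counts or none. The counting interval in ovaries was 736.3 to 764.1, against 8.67 to 12.0 in bodywall, and the ratio of the levels was 73.4-fold. With 0.5 CPM added to both levels the log2 ratio was 6.13, and 9.01 without the bodywall library. PL16373 was far from specific to the ovary over the whole series. It stayed between 11.5 and 37.6 scaled CPM from the egg to the swimming blastula, then stood at 698.5 in the early mesenchyme blastula, 1450.1 in the late gastrula, 7697 in the prism and 812.7 in the pluteus.

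PL07239 lies on scaffold 2100, bases 61621810 to 61658837, on the minus strand, with 3 exons. It had 31.2 scaled CPM in ovaries, with a counting interval of 28.4 to 34.2, against 0 counts in each of the 4 somatic tissues. A floor of 3 counts per library, taken after division of the even counts by 2, corresponds to 0.859 scaled CPM in lantern, the shallowest of the 4 after scaling. Ovaries were 36.3-fold above that floor. The counting interval of the 0 counts in lantern reached up to 1.06 scaled CPM, so 36.3-fold is not a strict lower limit. The egg also had 0 counts of PL07239, and the early gastrula had 0. Its highest developmental levels were 1.52 in the late gastrula, 2.18 in the prism and 1.68 in the pluteus. The transcript was thus plain in ovaries and not detected in the egg, where the counting interval reached up to 0.530 scaled CPM.

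Among genes of at least 20 scaled CPM in every somatic tissue, PL03174 and PL17343 lay furthest below them in ovaries, again with 0.5 CPM added. PL03174 lies on scaffold 1721, bases 43471568 to 43489426, on the plus strand, with 8 exons. It had 0.867 scaled CPM in ovaries, against 167.9 in gut, 172.3 in bodywall, 404.8 in tubefeet and 268.6 in lantern. The 4 somatic levels were all high, between 167.9 and 404.8 scaled CPM, and the lowest of them exceeded ovaries by 194-fold. Development resembled ovaries until late: PL03174 stayed at or below 0.787 scaled CPM from the egg to the late gastrula, then stood at 2.18 in the prism and 27.0 in the pluteus.

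PL17343 lies on scaffold 218, bases 8859591 to 8865893, on the plus strand, with 3 exons. It had 0.800 scaled CPM in ovaries, with a counting interval of 0.413 to 1.40, against 2636 in gut, 664.9 in bodywall, 139.2 in tubefeet and 1499 in lantern. Even tubefeet, the lowest somatic tissue, exceeded ovaries by 174-fold. The log2 ratio with 0.5 CPM added was 6.75, and 9.00 without the tubefeet library. PL17343 had 0 counts in the egg, 7.90 scaled CPM in the early mesenchyme blastula, 43.1 in the late gastrula, 360.4 in the prism and 245.1 in the pluteus. Both depleted genes therefore reached their highest developmental level in the prism or the pluteus. None of the 4 genes overlapped a gene model on the other strand.

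**Figure D2:**
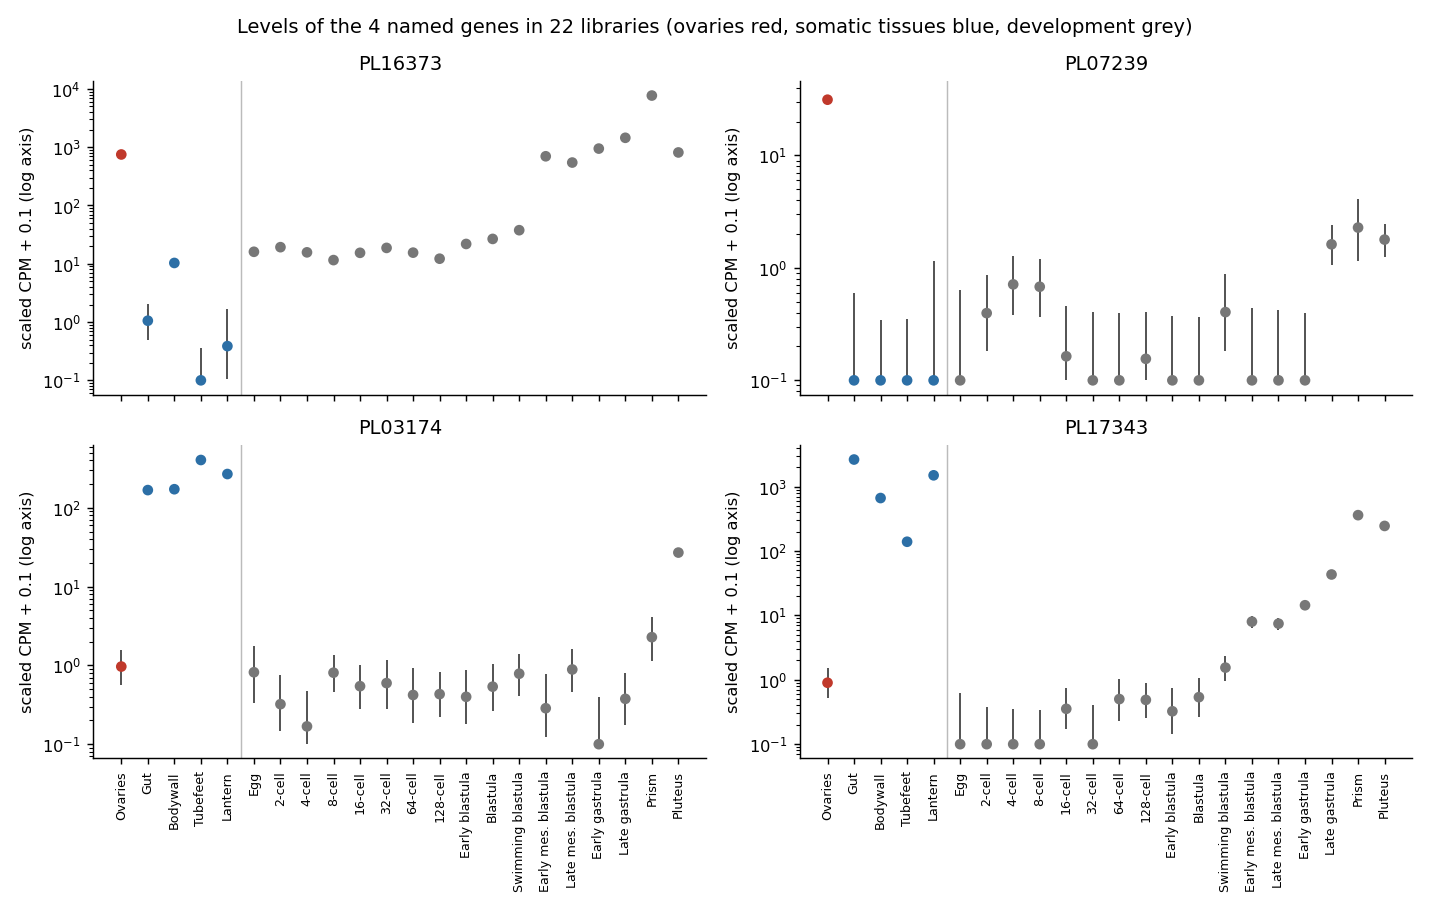
Scaled CPM plus 0.1 on a log axis for 4 genes in 22 RNA libraries, 1 point per library, with ovaries in red, somatic tissues in blue and developmental stages in grey; bars are exact 95% Poisson intervals and cover counting error only. PL16373 (750.1) and PL07239 (31.2) were high in ovaries and low in somatic tissues, while PL03174 (0.867) and PL17343 (0.800) were low in ovaries, high in all 4 somatic tissues and highest in development in the prism or pluteus.

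Bodywall was the somatic tissue most frequently nearest to ovaries. It was nearest for 2915 of the 6255 genes above (46.6%), against 1223 for gut, 1092 for lantern and 1025 for tubefeet. Among the 296 restricted genes bodywall was nearest for 254 (85.8%), lantern for 17, gut for 14 and tubefeet for 11. Lantern was the lowest of the somatic tissues for 3174 of the genes above (50.7%).

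The restricted rule caps every somatic level, so the same measure was read in a tissue left out of the rule. Of 557 genes at least 8-fold higher in ovaries than in gut, tubefeet and lantern, the median bodywall level was 10.6% of the ovary level, with quartiles of 6.55% and 16.4%. With gut left out, 307 genes had a median gut level of 0.964% of ovaries. With tubefeet left out, 322 genes had a median of 0.648%, and with lantern left out, 354 genes had a median of 1.03%. Bodywall thus held the transcripts raised in ovaries at higher levels than the other 3 somatic libraries did. Of the 557 genes, 12 reached 50% of the ovary level in bodywall and 1 matched or passed it. Among the 256 of them with at least 50 scaled CPM in ovaries the median was 10.5%, with quartiles of 7.22% and 15.1%. Bodywall is also the library whose counts were not all even. Where its counts of these genes came from was not tested.

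**Figure D3:**
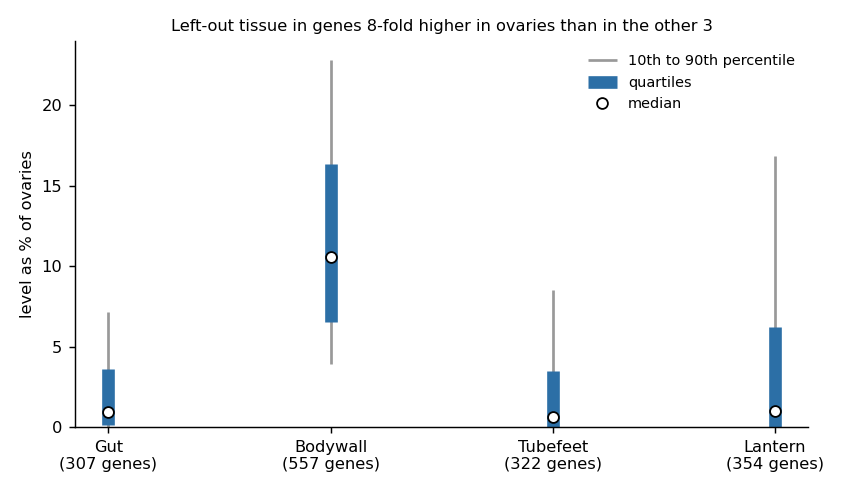
Level in the tissue left out, in percent of the ovary level, for genes at least 8-fold higher in ovaries than in the other 3 somatic tissues; circles are medians, boxes quartiles and lines the 10th to 90th percentile over genes. The bodywall distribution (median 10.6%) sits above those of gut (0.964%), tubefeet (0.648%) and lantern (1.03%).

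No such order held for the genes low in ovaries. Among the 253 depleted genes the somatic tissue nearest to ovaries was tubefeet for 83, bodywall for 69, lantern for 65 and gut for 36. The highest level was in tubefeet for 76, lantern for 75, gut for 74 and bodywall for 28. The depleted class rested strongly on 2 tissues: without the tubefeet library 687 genes met the rule, and 217 of them lay at or below ovaries in tubefeet. Without the lantern library 499 genes met it, and 31 lay at or below ovaries in lantern.

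The classes were chosen on these 5 libraries, so the direction of their shares of counts is set by the rule and only describes their size. Restricted genes held 13.7% of counts in ovaries, against 0.0802% in gut, 1.37% in bodywall, 0.0826% in tubefeet and 0.0675% in lantern. In the egg they held 4.25% and in the pluteus 2.13%. All genes above held 48.7% of counts in ovaries, against 6.26% in gut, 14.8% in bodywall, 7.19% in tubefeet and 5.16% in lantern. The genes below held 3.84% in ovaries, against 22.6% in gut, 24.2% in bodywall, 51.3% in tubefeet and 30.9% in lantern.

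Most of the abundant ovary transcripts, like most genes compared, were not highest in ovaries. Of the 100 genes with the highest ovary counts, 34 were above all somatic tissues, 17 of them restricted, 3 were below and 63 were neither. Over all genes compared 28.4% were above, 1.34% restricted, 20.9% below and 50.7% neither. Choosing genes by their ovary counts itself favours genes above. These 100 genes shared 61 members with the 100 most abundant of lantern, 47 with bodywall, 39 with gut, 38 with tubefeet, 45 with the pluteus and 5 with the egg. The egg therefore shared the fewest of its most abundant transcripts with ovaries among these 6 libraries.

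Most genes high in ovaries were detected in both the egg and the larva. At 1 scaled CPM or more, 80.8% of the genes above were present in both egg and pluteus and 66.5% in every developmental library, against 55.0% and 42.9% of all genes compared. By stage and at 1 scaled CPM or more, 85.1% of the genes above were present in the egg, 90.1% in the early blastula, 89.7% in the late gastrula and 89.8% in the pluteus. Over all genes compared these shares were 59.1%, 63.4%, 68.0% and 71.2%. Genes below in ovaries were present for 41.0% in the egg, 45.9% in the early blastula, 55.9% in the late gastrula and 62.4% in the pluteus. The prism library, with a TMM factor of 0.483 and 49.4% of counts in 100 genes, had lower shares of the genes above (79.9%), and the part of its composition in that was not tested.

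The egg shares moved with the ovary level. At 5 to 20 scaled CPM in ovaries, 85.6% of genes above, 82.9% of genes below and 86.0% of genes in neither class were present in the egg. At 20 to 100 scaled CPM the shares were 93.7%, 95% and 94.8%. At a like ovary level the 3 classes thus lay close together in the egg, and every gene above had entered with at least 1 scaled CPM in ovaries. In the pluteus the classes differed at a low ovary level: at 1 to 5 scaled CPM, 59.9% of genes above were present there, 80.0% of genes below and 76.5% of genes in neither class.

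Restricted genes were detected for a smaller share in the larva than in the early embryo. They were present for 82.4% in the egg, 88.9% in the early blastula and 88.2% in the swimming blastula, then for 77.4% in the early mesenchyme blastula and 73.6% in the pluteus. At 5 to 20 scaled CPM in ovaries only 33 of 64 restricted genes (51.6%, interval 38.7% to 64.2%) were present in the egg, against 85.6% of all genes above at this level. At 20 to 100 scaled CPM 85.3% of 116 restricted genes were present in the egg and 75.9% in the pluteus, against 93.7% and 98.0% of all genes above. At 100 scaled CPM or more the egg shares were alike, at 96.6% of 116 restricted genes and 96.0% of all genes above. The pluteus shares there were 81.0% and 96.2%. Per kilobase of exon, the median level of restricted genes was 45.4 scaled CPM in ovaries, 10.4 in the egg, 12.7 in the early blastula and 4.95 in the pluteus.

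Depleted genes, like all genes compared, were present for a larger share in the larva than in the egg. Of the 253, 42.3% were present in the egg, 39.5% at the 128-cell stage, 49.8% in the early blastula, 68.4% in the prism and 70.4% in the pluteus. Over all genes compared the shares were 59.1% in the egg and 71.2% in the pluteus. The class thus lay lower in the egg and near all genes compared in the pluteus. Per kilobase of exon depleted genes had a median of 0.460 scaled CPM in ovaries, 0.163 in the egg and 2.64 in the pluteus. Their medians were 24.3 in gut, 19.7 in bodywall, 20.2 in tubefeet and 24.3 in lantern. The pluteus median lay between those of ovaries and the adult somatic tissues, which the rule itself sets far apart. Over all genes compared the pluteus median was 3.43.

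**Figure D4:**
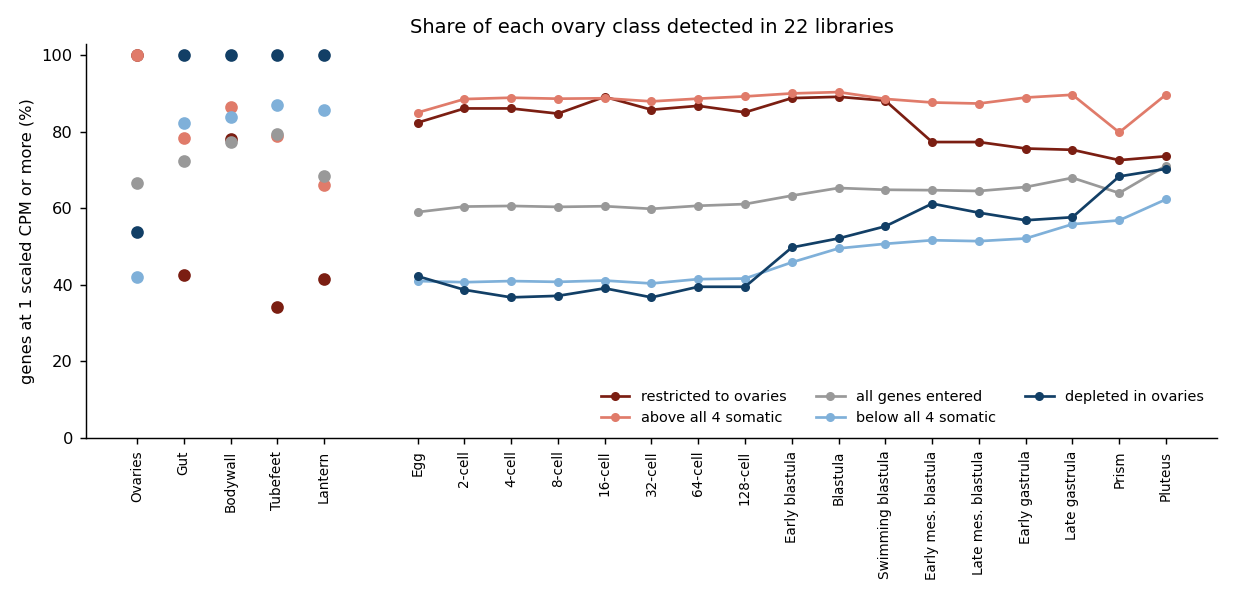
Percent of genes at 1 scaled CPM or more in 5 adult tissues (points) and 17 developmental libraries (lines), by ovary class, 1 library each. Genes above (85.1% in the egg) and restricted genes (82.4%) start high, and the restricted line lies lower after the swimming blastula. Depleted genes stand at 42.3% in the egg and 70.4% in the pluteus.

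Restricted genes were chosen for a high ovary level, so shares higher in ovaries than in development are in part set by that choice. Ovaries stood above all 17 developmental libraries for 179 of the 296 restricted genes (60.5%), against 37.9% of all genes above and 19.9% of all genes compared. They exceeded all 17 at least 8-fold for 59 restricted genes (19.9%), against 2.11% of all genes above and 0.958% of all genes compared. Set against the egg, 202 restricted genes (68.2%) were at least 2-fold higher in ovaries than in the egg, and 32 (10.8%) at least 2-fold lower. Among all genes above these shares were 49.0% higher and 17.4% lower, and over all genes compared 32.2% and 22%. Transcripts present in the egg and under 1 scaled CPM in the pluteus made up 15.2% of restricted genes, 45 in number, against 4.04% of all genes compared. Only 10 restricted genes stayed under 1 scaled CPM in all 17 developmental libraries.

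Subsets of the restricted class, chosen after their values were seen, differed in level. The 59 genes at least 8-fold over all of development had a median of 229 scaled CPM per kilobase in ovaries, 14.8 in bodywall, 3.16 in the egg and 0.438 in the pluteus. The other 237 had medians of 33.8 in ovaries, 2.64 in bodywall, 12.3 in the egg and 7.76 in the pluteus. The 32 genes lower in ovaries than in the egg had medians of 36.2 in ovaries and 140.5 in the egg, and of 12.9 in the pluteus. For 40 restricted genes (13.5%), PL16373 among them, the highest developmental library was the prism, against 14.7% of all genes compared. Chosen by that level, they had medians of 45.4 in ovaries, 7.14 in the egg and 64.7 in the prism.

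Genes below were absent from all of development about as frequently as genes in neither class. Of the genes below, 1025 (22.3%) stayed under 1 scaled CPM in all 17 developmental libraries, against 133 of the genes above (2.13%), 21.4% of genes in neither class and 16.1% of all genes compared. The highest developmental library lay between early gastrula and pluteus for 48.4% of genes below, against 26.0% of genes above, 39.7% of genes in neither class and 37.6% of all genes compared. Of the 253 depleted genes, 64 (25.3%) were highest in the prism and 64 in the pluteus, against 14.7% and 13.0% of all genes compared. The 40 depleted genes under 1 scaled CPM throughout development (15.8%) lay near the 16.1% of all genes compared. At under 1 scaled CPM in ovaries, 19.8% of genes below were present in the egg and 43.8% in the pluteus. Genes in neither class at this ovary level were present for 15.5% in the egg and 29.9% in the pluteus.

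Among genes under 1 scaled CPM in the egg, the first stage to reach that level was also counted. For genes above, 529 of 934 reached it between the 2-cell and 128-cell stages and 133 never did. For genes below, 439 of 2714 reached it in that span, 512 between early and swimming blastula and 1025 (37.8%) never did. Over all genes compared, 1935 of 9019 reached it between the 2-cell and 128-cell stages (21.5%), 15.6% between early and swimming blastula, and 39.3% never did. A level near 1 scaled CPM in the egg rests on few counts, so a first stage during cleavage was not told apart from counting error.

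A larger share of the genes above than of the genes below had an accessible start in the embryo. A peak summit within 1 kb of the annotated start was counted as a start peak. In the gastrula list 55.0% of genes above had a start peak, with a 95% Clopper-Pearson interval of 53.8% to 56.3%, against 41.4% of genes below and 44.8% of genes in neither class. The blastula list gave 50.4% for genes above and 36.7% for genes below, the prism list 50.0% and 36.2%, and the pluteus list 36.1% and 23.1%. The 16-cell list had the opposite order, with 7.27% of genes above and 10.2% of genes below. The gap was widest among genes whose highest adult level was 1 to 5 scaled CPM, at 6.69% of genes above and 15.7% of genes below. At 5 to 20 the shares were 8.27% and 8.15%. At 20 to 100 they were 6.63% and 8.04%, and at 100 or more 7.77% and 10.2%. Genes below thus had the larger share at 20 to 100 and at 100 or more, but not at 5 to 20. Intervals of the classes overlapped at each of these higher levels. In at least 1 of the 5 lists, 58.5% of genes above had a start peak, against 46.6% of genes below and 51.5% of all genes compared.

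Lists differ in length, with 30683 peaks in the 16-cell list, 142485 peaks for blastula, 154157 for gastrula, 112026 for prism and 44711 for pluteus, so shares were compared between classes within a list. With all peaks moved by 10 kb, 23.1% of the genes compared had a summit near their start in the gastrula list and 5.09% in the 16-cell list. In the 16-cell list 7.27% of genes above had a start peak with peaks in place, against 4.81% with peaks moved, and 10.2% of genes below, against 5.06%. The gastrula difference was present at most expression levels. Among genes whose highest adult level was 5 to 20 scaled CPM, 51.2% of genes above and 34.3% of genes below had a gastrula start peak. At 20 to 100 the shares were 59.6% and 43.7%, and at 100 or more 68.0% and 48.8%. Among genes at 1 to 5 scaled CPM they were 40.3% and 39.7%, so the classes did not differ there beyond their counting intervals.

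In the gastrula list 52.4% of restricted genes and 41.1% of depleted genes had a start peak, with intervals of 46.5% to 58.2% and 35.0% to 47.4%. The share over all genes compared, 47.0%, lay within both intervals. Among genes of a like highest adult level the order depended on the level. At 100 scaled CPM or more, 55.2% of restricted genes had a gastrula start peak (interval 45.7% to 64.4%), against 68.0% of genes above (64.7% to 71.1%). At 20 to 100 scaled CPM the shares were 48.3% of restricted genes (38.9% to 57.7%) and 59.6% of genes above, with overlapping intervals. At 5 to 20 scaled CPM they were 54.7% of restricted genes and 51.2% of genes above. Among the 59 restricted genes at least 8-fold over all of development, 21 had a gastrula start peak (35.6%), 4 a pluteus start peak (6.78%) and 33 had none in any list. Over all genes compared, 28.8% had a pluteus start peak and 51.5% a start peak in at least 1 list. Of the other 237 restricted genes, 134 had a gastrula start peak (56.5%) and 94 had none in any list. The 32 restricted genes lower in ovaries than in the egg had a gastrula start peak for 24 (75%). These 32 genes are among the 237. Of the 45 restricted genes present in the egg and under 1 scaled CPM in the pluteus, 15 had a gastrula start peak (33.3%).

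The named genes differed in their start peaks. PL16373 had start peaks in blastula, gastrula, prism and pluteus, with the prism summit 1 base from its start, and in the 16-cell list the nearest summit was 1195 bases away. PL07239 had start peaks in blastula, gastrula and prism, with summits 174 or 175 bases from its start, although its level did not exceed 2.18 scaled CPM in any developmental library. PL03174 had no start peak in any list, and its nearest summit, in blastula and gastrula, lay 1069 bases away. PL17343 had start peaks in gastrula, prism and pluteus, 39 to 46 bases from its start, and none in the 16-cell and blastula lists.

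**Figure D5:**
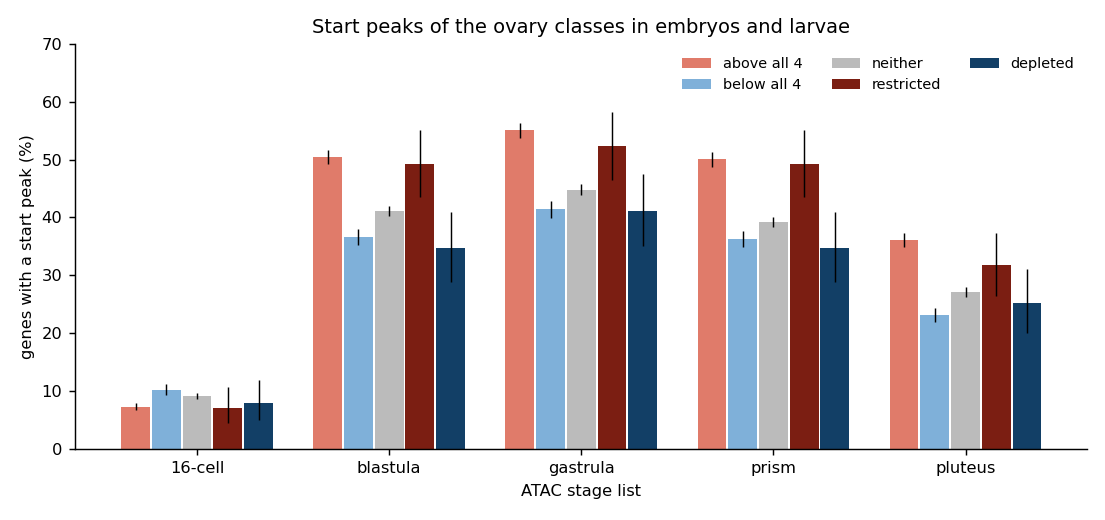
Percent of genes in each ovary class with an ATAC peak summit within 1 kb of the annotated start, in 5 stage lists; bars start at 0 and lines are exact 95% binomial intervals, which cover counting error only. Genes above exceed genes below in blastula, gastrula (55.0% and 41.4%), prism and pluteus, and lie under them in the 16-cell list (7.27% and 10.2%).

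The classes also differed in gene structure. Models with a single exon made up 4.30% of genes above and 14.6% of genes below, against 10.2% of all genes compared. The median number of exons was 7 for genes above and 5 for genes below. Restricted genes had 6.76% single-exon models and depleted genes 7.11%, with intervals of 4.18% to 10.2% and 4.27% to 11.0%. Depleted genes had the longest exon total, a median of 2452 bases, against 1673 for genes above and 1654 over all genes compared. A CPM level is not divided by length, and the part of this in the lengths of the classes was not tested.

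Neighbours of the same class were found at shares above those of the class among all genes. The next gene on the scaffold was also restricted for 28 of 227 restricted genes (12.3%), where restricted genes made up 1.34% of the genes compared. For depleted genes the count was 17 of 204 (8.33%), against 1.15%. For genes above it was 45.5%, against 28.4%, and for genes below 34.0%, against 20.9%. Of the 28 restricted pairs 24 lay on the same strand (85.7%), against 49.1% of all neighbouring pairs, with a median gap of 1545 bases. Neighbouring genes above lay head to head in 29.0% of pairs, against 24.8% of all neighbouring pairs. Neighbours on the same strand can be copies that share reads or parts of 1 transcript split over models, so levels within such pairs are uncertain.

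Restricted genes formed 26 runs of neighbours with 57 genes in all, 5 of them with at least 3 genes. On scaffold 3428, between bases 30180585 and 30250706, 3 plus-strand restricted genes stood in a row, with ovary levels of 27.6 to 187 scaled CPM and somatic levels no higher than 12.3. The egg held 52.9 to 125 scaled CPM of the same 3 genes. On scaffold 3434, between bases 21744777 and 21772964, 3 minus-strand genes with a single exon each had ovary levels of 5.87 to 33.9 scaled CPM and egg levels of 6.04 to 7.33. Depleted genes formed 16 runs with 35 genes. In a run of 3 minus-strand genes on scaffold 218, between bases 4494006 and 4512916, ovaries had 0.133 to 1.07 scaled CPM, against 9.76 to 233.7 over the somatic tissues.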

How the data were processed

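Total RNA was extracted with Trizol and sequenced from strand-specific libraries, per the labels' protocols. The deposited gene table holds raw read counts per gene model, for which the submitters' processing notes name STAR 2.5.2b and featureCounts 1.6.1. Its header lists strand option 1 and none for read pairs. The strand of the kit's reads was not settled, so counts may come from the opposite strand. Coordinates are 1-based positions from the deposited files, with the genome build not given in the sources used here. Every count was even in 21 of 22 libraries, and intervals used counts divided by 2 there. The ATAC peaks came from Bowtie2 2.4.1 and Genrich, per the submitters' processing notes. Each deposited peak carries 2 values of the authors, a score of its area and a p-value as -log10, and the score only ranked peaks. Early and late blastula lists were identical, so 5 distinct lists were used, read as 1 list per stage. The CUT&Tag data are not used here.

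Samples were grouped by tissue or stage from the labels. Scaling used edgeR 4.0.16 (TMM) and, as an alternative, DESeq2 1.42.0 in R 4.3.3; the rest used Python 3.11.15, scipy 1.17.1 and pandas 2.3.3. Genes entered at 1 scaled CPM in 1 of 5 adult libraries. A prior of 0.5 CPM was added for ratios, except for the printed fold ratios of the named genes. For those, 0 counts were set to a floor of 3 in each library, counted once even counts had been divided by 2. Overlapping exon records were merged. Intervals are exact Poisson or Clopper-Pearson at 95%. Named genes were the 2 in each direction with the largest ratio to the nearest somatic tissue, ranked with the prior of 0.5 CPM. They had 20 scaled CPM or more (in ovaries, or in every somatic tissue) and counting intervals clear of that tissue. The calling step was tested on simulated counts. Gene classes, lists and rules were chosen with earlier results of these data known. Alternatives covered the scaling, the filter, the prior, the peak window, the peak number and each somatic library left out.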

Additional observations from a re-analysis of the deposited data

How the results depend on the processing

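Leaving out 1 somatic library at a time gave 6625 to 6998 genes above all others, 4885 to 6957 below, 307 to 557 restricted and 313 to 687 depleted; each such rule is easier to meet with 3 tissues. The highest restricted count came without bodywall, the highest depleted count without tubefeet, and the 6957 genes below came without lantern. Depleted genes numbered 132 with library size, 464 with DESeq2 size factors and 116 with a prior of 2 CPM, which also left 178 restricted genes. Of the 296 restricted genes, 213 met the rule with library size and 200 with DESeq2 size factors.

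The share of genes above present in the egg was 83.1% with DESeq2 size factors, 73.2% without a filter, 91.2% with a filter of 5 CPM and 64.4% at a level of 5 CPM. For genes below it was 33.2% with library size, 46.5% with DESeq2 size factors, 39.5%, 47.4% and 25.6% under the same 3 changes, and 38.8% to 48.2% with a library left out. Gastrula start peaks of genes above stood at 51.8% without a filter, 58% with 5 CPM, 46.8% within 500 bp, 64.1% within 2000 bp, 29.7% with equal numbers of top peaks and 58.1% with any overlap. For genes below they stood at 31.7%, 52.7%, 19.0% and 45.0% under the last 4 changes, 39.0% with library size, 43.3% with DESeq2 size factors, and 40.4% to 43.2% with a library left out. Genes above exceeded genes below under each of these settings, and the cause of the shifts was not tested. Leaving out genes that overlap a model on the other strand, a choice made after seeing the data, gave 5692 genes above, 4220 below, 278 restricted and 230 depleted. No paired analysis was possible because each tissue has 1 library. Depth limits the low genes: a floor of 3 counts, after division by 2, is 0.859 scaled CPM in lantern and 0.200 in ovaries.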
